A study of Saccharomyces cerevisiae with 210 samples.

Results

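The DNA replication machinery of Saccharomyces cerevisiae was followed through the first 20 min of exposure to CHP, an oxidant that the labels give only by this abbreviation and that is read here as cumene hydroperoxide, an organic peroxide. The set holds 38 genes, taken by name, of the 5656 genes with a probe set of their own on the array. All 38 had a probe set, and where a gene had several, the brightest by its mean over the arrays was used. The set covers 13 genes of the pre-replicative complex, 6 genes of origin firing, 7 genes of the polymerases and primase, 9 genes of the clamp, clamp loader and single-strand binding protein, and 3 genes of lagging-strand maturation and thymidylate supply. The 38 genes lie on 14 of the 16 chromosomes, and only 2 pairs of them are direct neighbours in the RefSeq annotation (RFC5 with POL30, and POL2 with ORC5).

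Replication begins in G1, when the origin recognition complex (ORC) and Cdc6 load the Mcm2-7 helicase onto origins. In S phase, cyclin-dependent kinase and the Dbf4-dependent kinase turn the loaded helicase into an active replication fork. A part of these genes is transcribed in a burst at the G1/S boundary under the factors MBF and SBF. In a growing culture the RNA of that part follows how many cells pass that point, while the other members need not follow it. In RNA from whole cultures, fewer cells at the stage where a gene is transcribed and less RNA per cell cannot be told apart.

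The groups were the mutants yap1, glr1, gpx1, gpx2, grx1 and grx2, and wild type, all labelled as the diploid strain BY4743. Yap1 is the main transcription factor of the peroxide response, Glr1 is glutathione reductase, Gpx1 and Gpx2 are glutathione peroxidase homologues, and Grx1 and Grx2 are glutaredoxins. Each genotype was grown in fermentors as batch cultures to mid-exponential phase, 3 cultures receiving 0.19 mM CHP and 3 left untreated (Control). Each culture was sampled at 0, 3, 6, 12 and 20 min, the CHP cultures at 0 min just before the addition, which makes 210 Affymetrix Yeast Genome S98 arrays. Values are deposited log2 RMA expression values, and a response is the CHP mean minus the Control mean at the same time (3 cultures each). The labels do not say how the mutants were made, or whether a mutant is more than 1 clone. Array values are brightness, so levels of different genes are not compared, except that dim probe sets are set beside those of the deleted genes. The lower limit differs between probe sets, so that is only a rough guide.

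Each mutant read its own gene below wild type in all 30 of its arrays. YAP1 averaged 3.50 ± 0.33 in yap1 and 6.66 ± 0.45 in wild type, and GPX1, the closest pair, 4.13 ± 0.18 in gpx1 and 5.39 ± 0.40 in wild type (SD, n = 30 arrays each). The arrays labelled gpx2 went against the diploid label. Of 12 haploid and mating genes, 5 (STE2, MFA2, STE4, STE18 and RME1) were above all 180 other arrays in every gpx2 array. STE2, the alpha-factor receptor gene that diploids repress, averaged 7.97 ± 0.73 in gpx2 (n = 30) and 3.59 ± 0.22 in the other genotypes (n = 180). MFA2, which encodes a-factor, averaged 12.05 ± 0.84 in gpx2 and 6.96 ± 0.32 in the others, while STE3, the a-factor receptor gene, read 3.71 and 3.82. The mean of the list was between 5.97 and 7.0 in gpx2 arrays and between 4.40 and 5.08 in all others. The mean of 10 sporulation genes stayed between 3.53 and 4.67 in all 210 arrays. Results are therefore given with and without gpx2 where they rest on it. The array of grx2 CHP replicate 2 at 20 min also stood apart, with a mean correlation of 0.863 with the other arrays of its group, against a median of 0.992 over all arrays. Grx2 values at 20 min are given with and without it.

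In wild type, the S-phase cyclin gene CLB6 was the first to be called lower, at 3 min. The origin-licensing gene CDC6 and part of the helicase genes were called by 6 min. Most polymerase genes and the clamp gene POL30 were called by 12 or 20 min. At 3 min 1 of 38 members was lower in CHP cultures (0.106% of all genes were called lower), at 6 min 14 (8.68%), at 12 min 24 (19.5%) and at 20 min 22 (21.9%). No member was called higher at these times (0.672%, 4.05%, 10.7% and 16.7% of all genes were). At 0 min limma called 0 members and 0 genes, with 1 member at an unadjusted p below 0.05. The median response of the 38 genes was -0.10 at 3 min, -0.31 at 6 min, -0.45 at 12 min and -0.45 at 20 min, beside -0.06, -0.12, -0.09 and -0.04 for all genes. These calls are limma tests with Benjamini-Hochberg adjustment over all genes and a threshold of 0.05. Of the calls, 8 of the 14 at 6 min, 11 of the 24 at 12 min and 5 of the 22 at 20 min ended when some single culture was left out, and the counts without a culture ran from 8 to 14 at 6 min, without Control replicate 1 for the lowest. With the 0 min difference of the arms subtracted, no member was called at 3 min and 2 were at 6 min (CDC6 and CLB6). At 12 min 10 were called, and at 20 min 15. ORC1, ORC3, MCM6, CTF4, RFC1, RFC5 and RAD27 then lost their call at 20 min. The member medians with this subtraction were -0.24 at 6 min, -0.445 at 12 min and -0.38 at 20 min. Below 0 were 34, 36 and 34 of the 38 members. The subtraction brings in the 0 min means as well, so its errors are larger and fewer calls do not by themselves mean smaller responses. After centring each array on its median 8 members were lower at 6 min and 15 at 12 min. Over all genes, centring turned 491 lower and 229 higher calls at 6 min into 211 and 327, 1104 and 604 at 12 min into 736 and 937, and 1241 and 945 at 20 min into 978 and 1263. It left 19 members lower at 20 min and 0 higher.

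**Figure D1:**
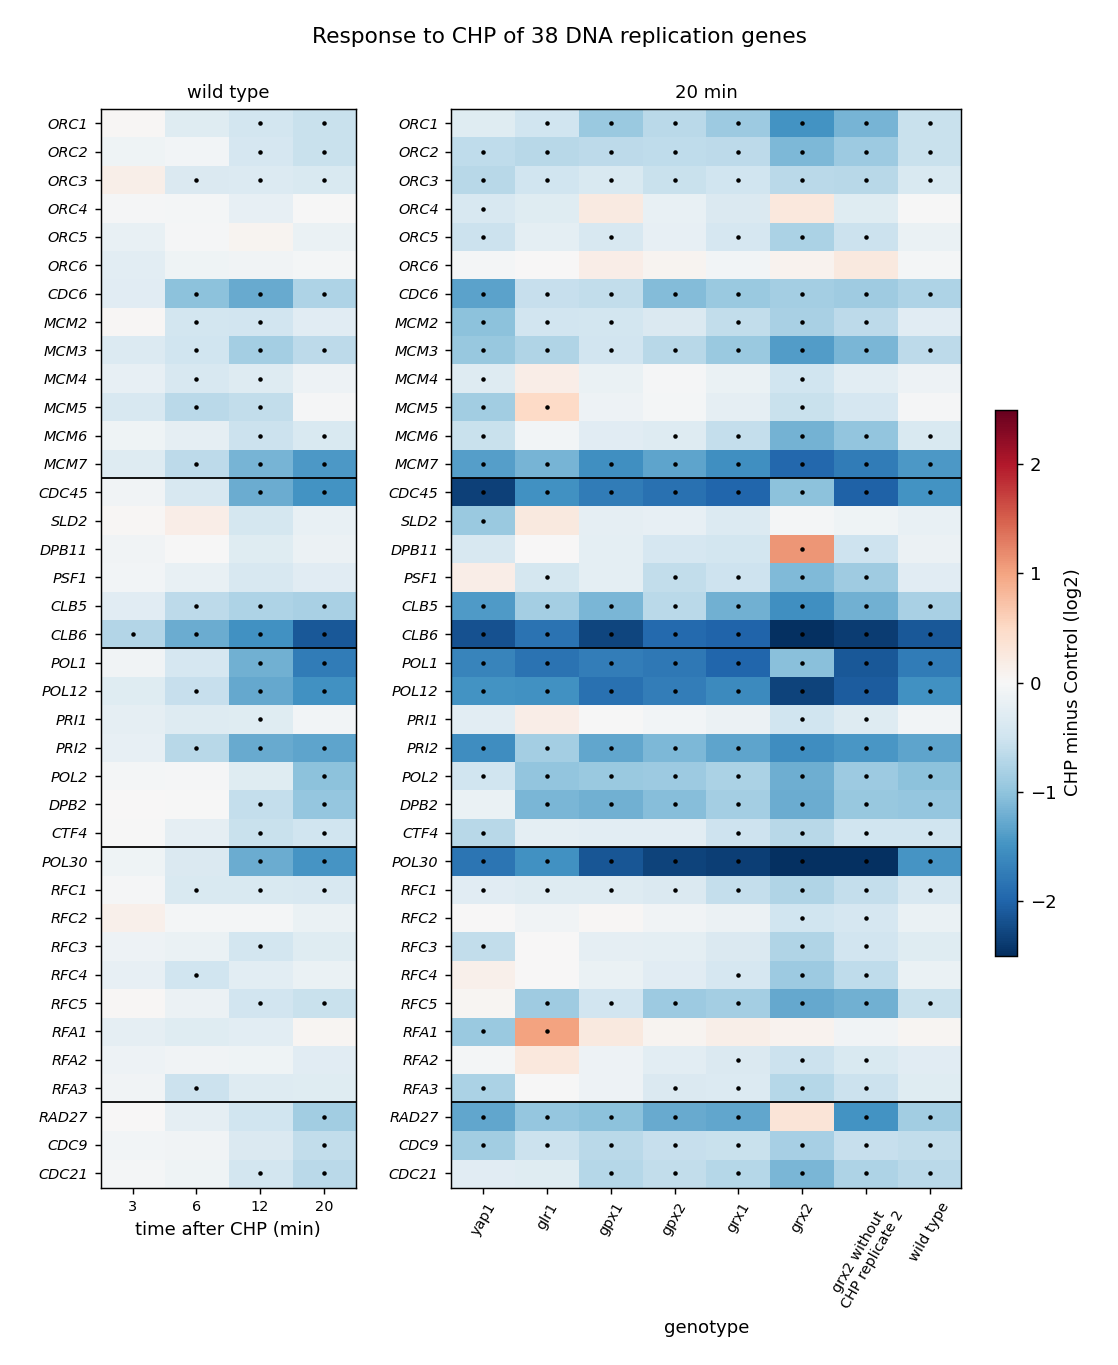
Response to CHP of each of the 38 genes (rows, in their role groups) in wild type by time (left) and in each genotype at 20 min (right), as CHP minus Control on the log2 scale; a dot marks an adjusted p under 0.05 by limma. Blue is lower in CHP; at 20 min, POL30 and CLB6 are blue in all 7 genotypes, while RFA1 is red and marked in glr1 and blue and marked in yap1.

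The members divided by when they were called. CLB6 was lower at all 4 times after the addition. Lower at 6, 12 and 20 min were ORC3, CDC6, MCM3, MCM7, CLB5, POL12, PRI2 and RFC1. Another 10 genes were lower at 12 and 20 min (ORC1, ORC2, MCM6, CDC45, POL1, DPB2, CTF4, POL30, RFC5 and CDC21), and 3 at 20 min alone (POL2, RAD27 and CDC9). MCM2, MCM4 and MCM5 were called at 6 and 12 min but not at 20 min, PRI1 and RFC3 at 12 min alone, and RFC4 and RFA3 at 6 min alone. The remaining 9 members (ORC4, ORC5, ORC6, SLD2, DPB11, PSF1, RFC2, RFA1 and RFA2) were called at no time in the fit to all arrays. A difference too small to be detected with 3 cultures an arm would also go uncalled.

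The change between 6 and 20 min was tested directly. Relative to the response at 6 min, the 20 min response was lower for 9 members (8.77% of all genes) and higher for 0 (11.8%), with 13 members at an unadjusted p below 0.05. The 9 were POL1 (-1.33), POL30 (-1.11), CDC45 (-1.09), POL2 (-1.0), DPB2 (-0.96), POL12 (-0.93), CLB6 (-0.89), MCM7 (-0.79) and ORC2 (-0.51). All but ORC2 held whichever culture was left out. MCM5 went the other way by 0.64 ± 0.25 (SE), with an adjusted p of 0.0507 by limma. Untreated wild-type cultures gave no member, and 0% of all genes, a call between 0 and 20 min, with 2 members at an unadjusted p below 0.05.

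**Figure D2:**
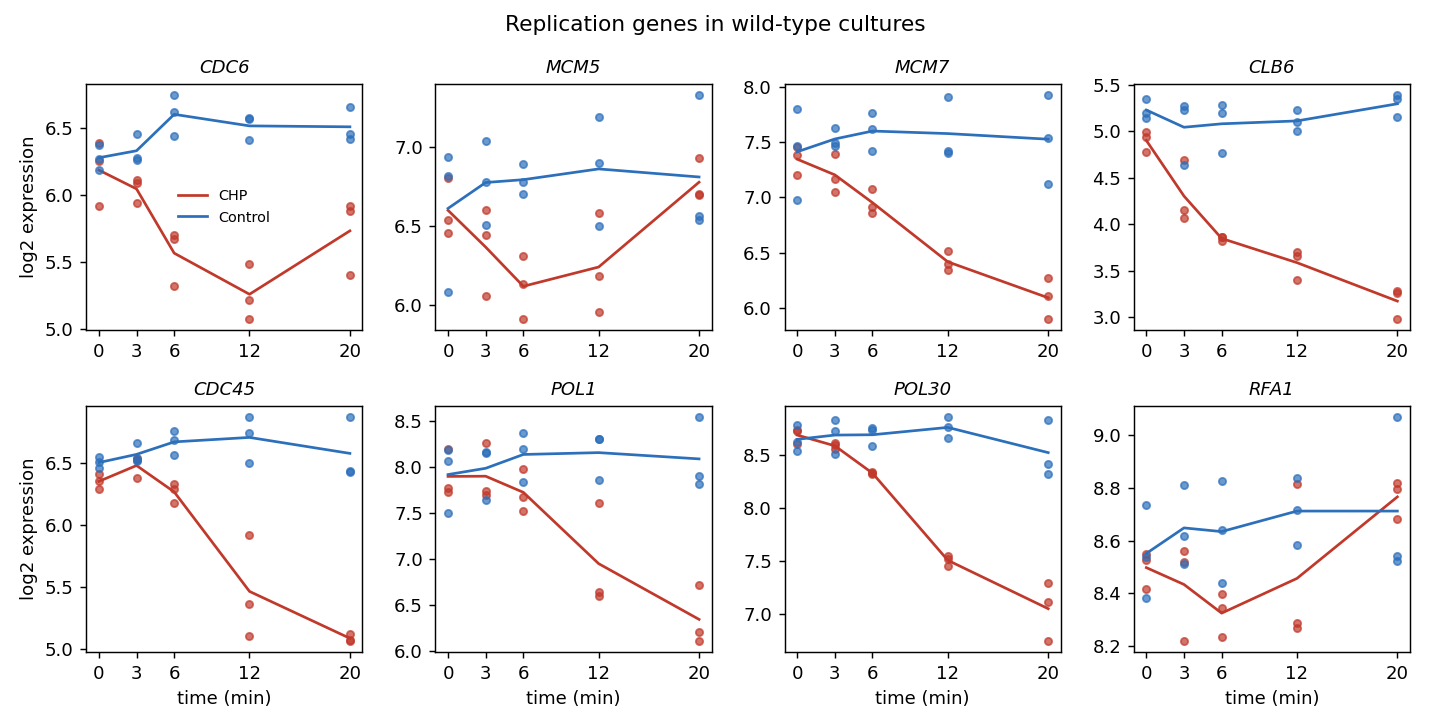
Log2 expression of 8 replication genes in wild-type cultures against time (min); points are single arrays (3 CHP, 3 Control at each time) and lines join the means. CHP values of CLB6, MCM7, CDC45, POL1 and POL30 keep falling away from Control to 20 min, whereas those of CDC6 are lowest at 12 min and those of MCM5 and RFA1 lie among the Control values at 20 min.

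Of the 13 genes of the pre-replicative complex, 7 were lower in CHP at 20 min in wild type. MCM7, a subunit of the replicative helicase, fell most. It read 6.27, 5.90 and 6.11 in CHP cultures, against 7.93, 7.54 and 7.12 in Control cultures. Every CHP array was below every Control array, and the response was -1.44 ± 0.16 (SE; limma adjusted p = 1.16e-14). CDC6, the licensing factor that helps ORC load the helicase, was at -1.03 by 6 min (5.33, 5.67 and 5.71 in CHP cultures, against 6.62, 6.44 and 6.75 in Control cultures). Its response was -1.25 at 12 min and -0.77 at 20 min, with CHP below Control throughout.

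The other helicase subunit genes had smaller responses at 20 min, -0.66 for MCM3, -0.38 for MCM6, -0.29 for MCM2 (adjusted p = 0.161), -0.12 for MCM4 (0.47) and -0.03 for MCM5 (0.915). The MCM6 call ended without CHP replicate 2 or without Control replicate 1 (adjusted p of 0.123 and 0.104). At 6 min MCM5 read 6.31, 5.91 and 6.13 in CHP cultures, against 6.89, 6.78 and 6.70 in Control cultures, and its groups did not overlap. At 20 min it read 6.93, 6.70 and 6.70 in CHP cultures, against 7.33, 6.54 and 6.56 in Control cultures, and they did.

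Among the ORC subunits, the ATPase subunit gene ORC1 was at -0.56, ORC2 at -0.57 and ORC3 at -0.38 at 20 min, all 3 called, ORC1 not with the 0 min difference subtracted (adjusted p = 0.0669). The ORC3 call ended without CHP replicate 3 or without Control replicate 1 (adjusted p of 0.0823 and 0.104). ORC5 (-0.16), ORC6 (-0.05) and ORC4 (-0.02) were not. ORC4 read 6.71, 6.83 and 6.89 in CHP cultures, against 6.86, 6.51 and 7.11 in Control cultures, so the groups overlapped. ORC6 averaged 3.64 over all arrays, within the range of the mean values of the deleted genes in their own mutants, so its probe set may be too dim to show a change.

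Of the 6 origin-firing genes, CDC45 and the cyclin genes CLB5 and CLB6 were lower at 20 min. CLB6, with CLB5 a cyclin that drives origin firing, had the largest response of the 38 members at all 4 times. At 3 min it read 4.69, 4.15 and 4.07 in CHP cultures, against 5.23, 5.26 and 4.64 in Control cultures. Those groups overlapped slightly, and the response of -0.74 ± 0.15 (limma adjusted p = 0.000632) lost its call without CHP replicate 3 (0.0618) or Control replicate 2 (0.0518). At 0 min, before the addition, CHP minus Control for CLB6 was already -0.33, without a call. With that subtracted, CLB6 was not called at 3 min. At 20 min CLB6 read 3.26, 2.98 and 3.29 in CHP cultures, against 5.39, 5.15 and 5.34 in Control cultures, a response of -2.12 ± 0.15 (adjusted p = 3.38e-27). The CHP values lay below the mean values of the deleted genes in their own mutants, so the probe set may have been at its lower limit.

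CDC45, a component of the active CMG helicase, read 5.06, 5.07 and 5.11 in CHP cultures at 20 min, against 6.87, 6.43 and 6.43 in Control cultures. The response was -1.49 ± 0.22, and -0.40 at 6 min. The scaffold gene DPB11, which joins firing factors to the helicase, read 6.05, 5.97 and 6.22 in CHP cultures, against 6.60, 6.04 and 6.05 in Control cultures. These groups overlapped, and its response was -0.15 ± 0.30 (adjusted p = 0.747). SLD2, a firing factor phosphorylated by cyclin-dependent kinase, and PSF1, a GINS subunit, were at -0.19 and -0.28 and not called.

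Of the 7 polymerase and primase genes 6 were lower at 20 min, with a median response of -1.03. POL1, the catalytic subunit of polymerase alpha, read 6.71, 6.21 and 6.11 in CHP cultures, against 8.54, 7.91 and 7.81 in Control cultures. These groups were more than 1 log2 unit apart, and the response was -1.74 ± 0.24 (limma adjusted p = 6.04e-10). Its partner POL12 was at -1.51 and the large primase subunit PRI2 at -1.32. The catalytic primase subunit PRI1 read 7.03, 7.13 and 7.09 in CHP cultures, against 7.09, 7.17 and 7.22 in Control cultures, a response of -0.08 ± 0.12 (adjusted p = 0.673).

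For polymerase epsilon, the catalytic subunit gene POL2 was at -1.03 and the DPB2 subunit gene at -0.96, both near 0 at 6 min (-0.03 and 0.00). POL2 had 9 probe sets on the array. The brightest, used here, was at -1.03 and another at -0.87, while the rest ran from -0.49 to 0.40. CTF4, which tethers polymerase alpha to the helicase, was at -0.50, and at -0.39 with the 0 min difference subtracted (adjusted p = 0.102).

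In the group of 9 clamp, loader and RPA genes, 3 were lower at 20 min. POL30, which encodes the sliding clamp PCNA, read 6.75, 7.29 and 7.12 in CHP cultures, against 8.83, 8.32 and 8.41 in Control cultures. The groups were well apart, and the response was -1.47 ± 0.13 (limma adjusted p = 1.94e-19). Of the clamp loader, RFC1 was at -0.40 and RFC5 at -0.55, while RFC2, RFC3 and RFC4 ran from -0.29 to -0.16 without a call. The call of RFC1 ended without CHP replicate 2 (adjusted p = 0.0508) and that of RFC5 without Control replicate 1 (0.0581). The RPA genes, for the protein that coats single-stranded DNA, were not called at 20 min in the fit to all arrays. Without the grx2 array that stood apart, an alternative chosen after seeing the data, RFA2 was called lower (-0.29, limma adjusted p = 0.0454). RFA1 read 8.80, 8.82 and 8.68 in CHP cultures, against 9.07, 8.52 and 8.54 in Control cultures, and its response was 0.05 ± 0.14 (adjusted p = 0.808).

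All 3 genes of lagging-strand maturation and thymidylate supply were lower at 20 min. RAD27, the flap endonuclease, read 6.63, 6.78 and 6.79 in CHP cultures, against 7.93, 7.59 and 7.25 in Control cultures. These did not overlap. The response was -0.86 ± 0.34 (limma adjusted p = 0.0323), and it lost its call when any of 5 of the 6 cultures was left out, with adjusted p-values up to 0.158. All groups share 1 estimate of the spread, and for RAD27 that estimate holds the grx2 array that stood apart, where RAD27 read 11.71. Without that array, an alternative chosen after seeing the data, the wild-type response was -0.86 ± 0.155 (adjusted p = 1.09e-06) and held whichever culture was left out as well, with adjusted p-values up to 0.000393. The same array widened the errors of DPB11, CDC45 and POL1, and without it the wild-type responses were -0.15 ± 0.13 for DPB11 (adjusted p = 0.393), -1.49 ± 0.15 for CDC45 and -1.74 ± 0.17 for POL1. CDC9, the DNA ligase, read 7.18, 7.63 and 7.93 in CHP cultures, against 8.29, 8.01 and 8.28 in Control cultures, a response of -0.61 ± 0.16. CDC21, thymidylate synthase, was at -0.67, and its second, dimmer probe set at -0.37.

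Members were lower at 20 min in every genotype, with 27 in yap1 (26.3% of all genes), 21 in glr1 (26.7%), 22 in gpx1 (26.3%) and 23 in gpx2 (24.1%). Lower in grx1 were 28 (26%) and in the grx2 mutant 32 (39.3%). Without the array that stood apart, grx2 again had 32 lower (30.6%). The member medians were -0.66 in yap1, -0.46 in glr1, -0.44 in gpx1 and -0.57 in gpx2. In grx1 the median was -0.59, and in grx2 it was -0.85, or -0.73 without the array. Those of all genes lay between -0.14 and 0.01. Beside the gpx2 count, the haploid and mating genes differed between the gpx2 arms at 20 min, where the mean of the list was between 5.97 and 6.07 in CHP arrays and between 6.75 and 6.86 in Control arrays. Of its 12 genes 1 was higher and 4 were lower, HO (-2.62), which encodes the mating-type switching endonuclease, MFA2 (-2.42), STE2 (-2.0) and STE4 (-1.60). In yap1 4 of the 12 were lower and 2 higher, and in glr1 4 lower and 1 higher. The lowest values there were -0.625 in yap1 and -0.856 in glr1, smaller falls than in gpx2. The part of the haploid and mating genes in the gpx2 responses was not tested. Called higher were MCM5 (0.49) and RFA1 (1.01) in glr1 (29.3% of all genes were higher) and DPB11 in grx2 (26.1%).

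**Figure D3:**
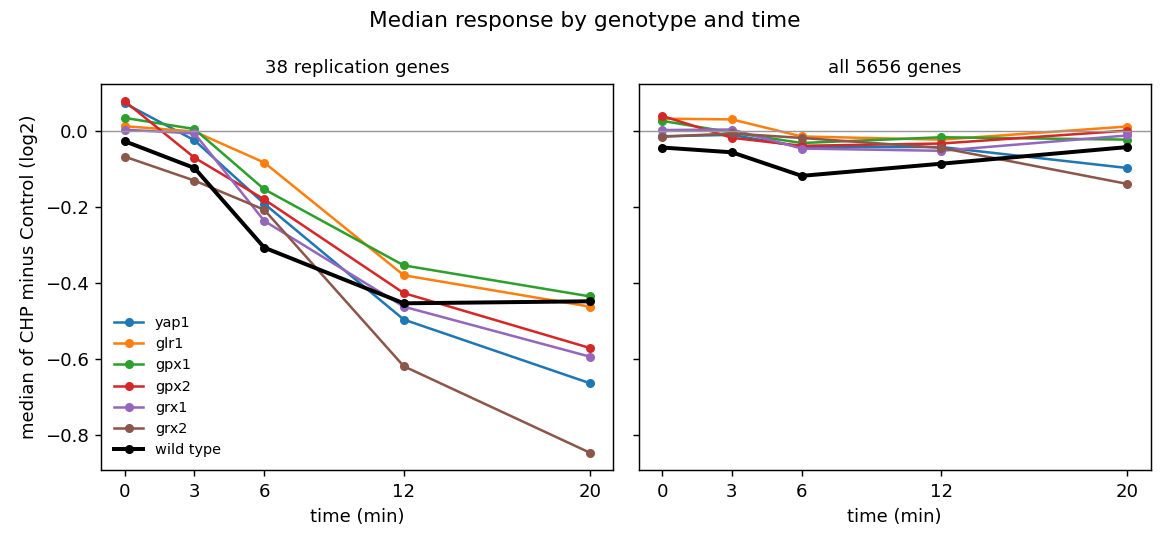
Median of CHP minus Control (log2) over the 38 replication genes (left) and over all 5656 genes (right) at each time (min), with a line for each genotype. The member medians at 20 min lie between -0.85 in grx2 and -0.44 in gpx1, while the medians of all genes stay between -0.14 and 0.04.

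In all 7 genotypes, 15 members were lower at 20 min (9.16% of all genes were). They were ORC2, ORC3, CDC6, MCM3, MCM7, CDC45, CLB5, CLB6, POL1, POL12, PRI2, POL2, POL30, RFC1 and CDC9. The same 15 were lower in all 6 genotypes other than gpx2 (9.41%), and RAD27 joined them when the grx2 array was left out (9.95%). Of the 15, 9 were called in every genotype whichever of its cultures was left out. RFC1 lost its call in 5 genotypes, ORC3 in wild type, glr1 and gpx1, CDC6 in glr1, MCM3 in gpx1, and CDC45 and POL1 in grx2, each without some single culture. Another 21 were lower in 1 to 6 genotypes. ORC6 and DPB11 were lower in none, although DPB11 was lower in grx2 without the array. The cultures of the 7 genotypes are separate, so these responses share no samples. Their calls do share 1 estimate of the spread, taken over all arrays, so they are not independent.

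The grx2 call for DPB11 rested on a single array. DPB11 read 5.53, 10.55 and 5.74 in CHP cultures of grx2, against 6.27, 6.29 and 5.92 in Control cultures. The response was 1.11 with the array and -0.53 without it (limma adjusted p = 0.00153). On the same array RAD27 read 11.71, beside 6.16 and 6.42 in its other CHP cultures and 7.73, 7.85 and 7.74 in Control cultures. Its response was 0.32 with the array and -1.49 without. POL1 (9.39, beside 6.37 and 5.93) and CDC45 (7.53, beside 4.33 and 4.69) were high there too, and their responses were -2.12 and -2.03 without it.

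Whether a mutant responded differently from wild type was tested as the difference of the 2 responses at 20 min. All mutants were set against the same 6 wild-type cultures. In yap1 the difference was called for 8 of 38 members, against 23.2% of all genes, so the share of members was close to that of all genes. The members were RFA1 (-0.99), CDC45 (-0.84), MCM5 (-0.83), MCM2 (-0.73), SLD2 (-0.73) and CLB5 (-0.60), whose responses were lower in yap1 than in wild type, and DPB2 (0.80) and POL2 (0.54), whose responses were higher. The count was 4 without wild-type CHP replicate 2.

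RFA1, the large RPA subunit, read 7.83, 8.17 and 7.68 in CHP cultures of yap1 at 20 min, against 8.82, 8.85 and 8.80 in Control cultures. These were apart, whereas in wild type CHP and Control overlapped. The difference of response was -0.99 ± 0.19 (SE; limma adjusted p = 2.31e-05), held whichever culture was left out, and was -0.84 with the 0 min difference of the arms subtracted (adjusted p = 0.0265). At 12 min it was -0.74 (adjusted p = 0.00202).

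MCM5 read 5.86, 6.05 and 5.96 in CHP cultures of yap1, against 6.99, 6.73 and 6.74 in Control cultures. The arms were apart here and overlapped in wild type, and the difference was -0.83 ± 0.25 (limma adjusted p = 0.00722). It held whichever culture was left out but not with the 0 min difference subtracted (-0.63, adjusted p = 0.258). CDC45 read 4.73, 4.68 and 4.36 in CHP cultures of yap1, against 6.84, 6.86 and 7.08 in Control cultures. It had fallen in both genotypes, and the difference of -0.84 ± 0.32 (adjusted p = 0.0387) ended when any of 7 of the 12 cultures was left out, with adjusted p-values up to 0.122, and its adjusted p was 0.0545 with culture as a random block. Without the grx2 array that stood apart, an alternative chosen after seeing the data, the CDC45 difference was -0.84 ± 0.21 (limma adjusted p = 0.000963). In that fit RFA3 was called in yap1 as well (-0.49, adjusted p = 0.0481), and the members called in the fit to all arrays kept their calls.

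DPB2 read 7.02, 6.78 and 6.91 in CHP cultures of yap1, against 7.26, 7.0 and 6.93 in Control cultures. In wild type it read 6.11, 6.09 and 6.33 in CHP cultures, against 7.07, 7.06 and 7.29 in Control cultures. The arms were well apart in wild type and overlapped in yap1, and the difference was 0.80 ± 0.17 (limma adjusted p = 9.32e-05). The yap1 arms already differed in DPB2 at 0 min, before the addition, when the later CHP cultures read 7.30, 7.25 and 7.11 and the Control cultures 6.51, 6.81 and 6.93. With that subtracted the difference was 0.17 ± 0.24 (adjusted p = 0.729). Over all genes, 6.31% were called between the yap1 arms at 0 min, 2 members among them (DPB2 at 0.48 and MCM4 at 0.40), and the array of yap1 Control replicate 1 at 0 min was 1 of 5 arrays standing apart from their groups. With the 0 min difference subtracted, 3 members were called in yap1, RFA1, CLB5 (-1.01) and MCM4 (-0.80).

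The other 4 calls in yap1, like that of CDC45, depended on single cultures. MCM2 lost its call when any of 3 single cultures was left out, CLB5 for any of 5, POL2 for any of 7 and SLD2 for any of 8. SLD2 averaged 4.11 over all arrays, within the range of the deleted genes' means. At 6 min in yap1 3 members were called (8.29% of all genes), SLD2 at -1.03, RFC4 at 0.87 and POL30 at 0.55. At 12 min 4 were (22.5%), RFA1, CLB6 (-0.68) and ORC5 (-0.68) lower and ORC1 (0.57) higher.

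**Figure D4:**
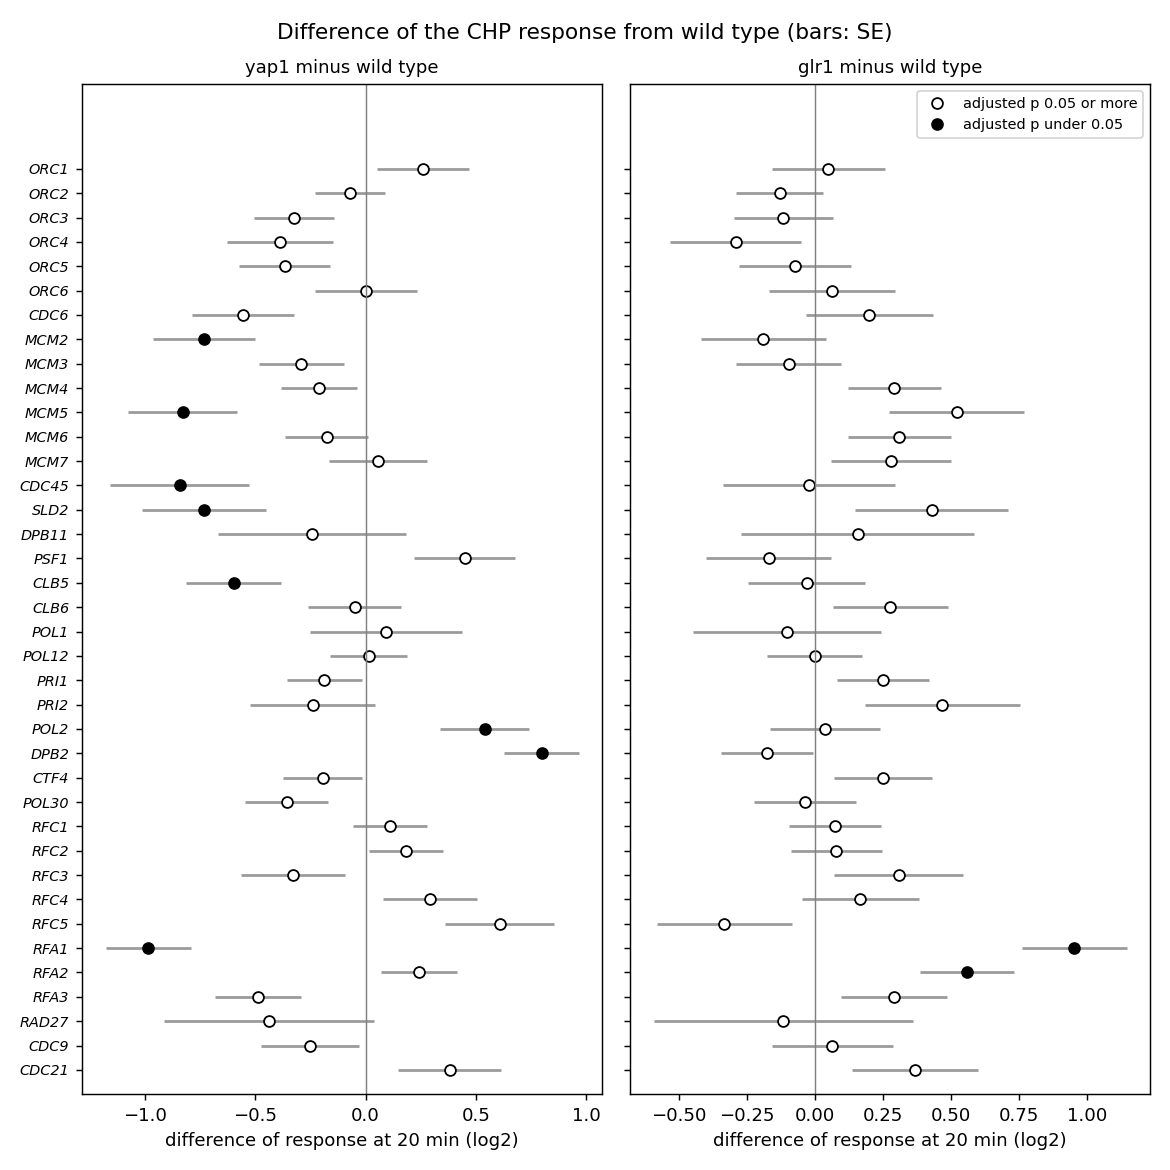
Difference of the CHP response from wild type at 20 min (log2) for each of the 38 genes, in yap1 (left) and glr1 (right); circles are estimates, bars their SE, and filled circles have an adjusted p under 0.05 by limma. RFA1 lies at -0.99 in yap1 and at 0.95 in glr1.

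In glr1 the difference was called for 2 of 38 members, against 5.07% of all genes, so the share of members was again close to that of all genes. Both were RPA genes, and neither was called with the 0 min difference of the arms subtracted. RFA1 read 9.37, 9.42 and 9.29 in CHP cultures of glr1, against 8.04, 8.51 and 8.50 in Control cultures. Every CHP array was above every Control array, and the difference from wild type was 0.95 ± 0.19 (limma adjusted p = 0.000439). It held whichever culture was left out and was 1.01 with the 0 min difference subtracted, where its adjusted p was 0.0667. The 20 min array of glr1 Control replicate 3 was 1 of the 5 arrays standing apart from their groups (mean correlation 0.944). Between 0 and 20 min, untreated glr1 cultures had 171 genes called lower and 137 higher, with no member among them. RFA2, the middle RPA subunit, read 9.01, 8.99 and 8.88 in CHP cultures of glr1, against 8.67, 8.56 and 8.84 in Control cultures. Its difference of 0.56 (adjusted p = 0.0376) ended when any of 7 single cultures was left out, under quantile normalization (0.156) and with arrays centred (0.0938). MCM5 read 6.94, 7.16 and 7.06 in CHP cultures of glr1, against 6.54, 6.26 and 6.89 in Control cultures. It was higher in CHP by 0.49, a call lost without CHP replicate 2 (adjusted p = 0.057) or Control replicate 2 (0.144), and its difference from wild type was not called. At 6 min 1 member was called in glr1 (1.47% of all genes), MCM3 at 0.69, a call that ended when any of 7 single cultures was left out.

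**Figure D5:**
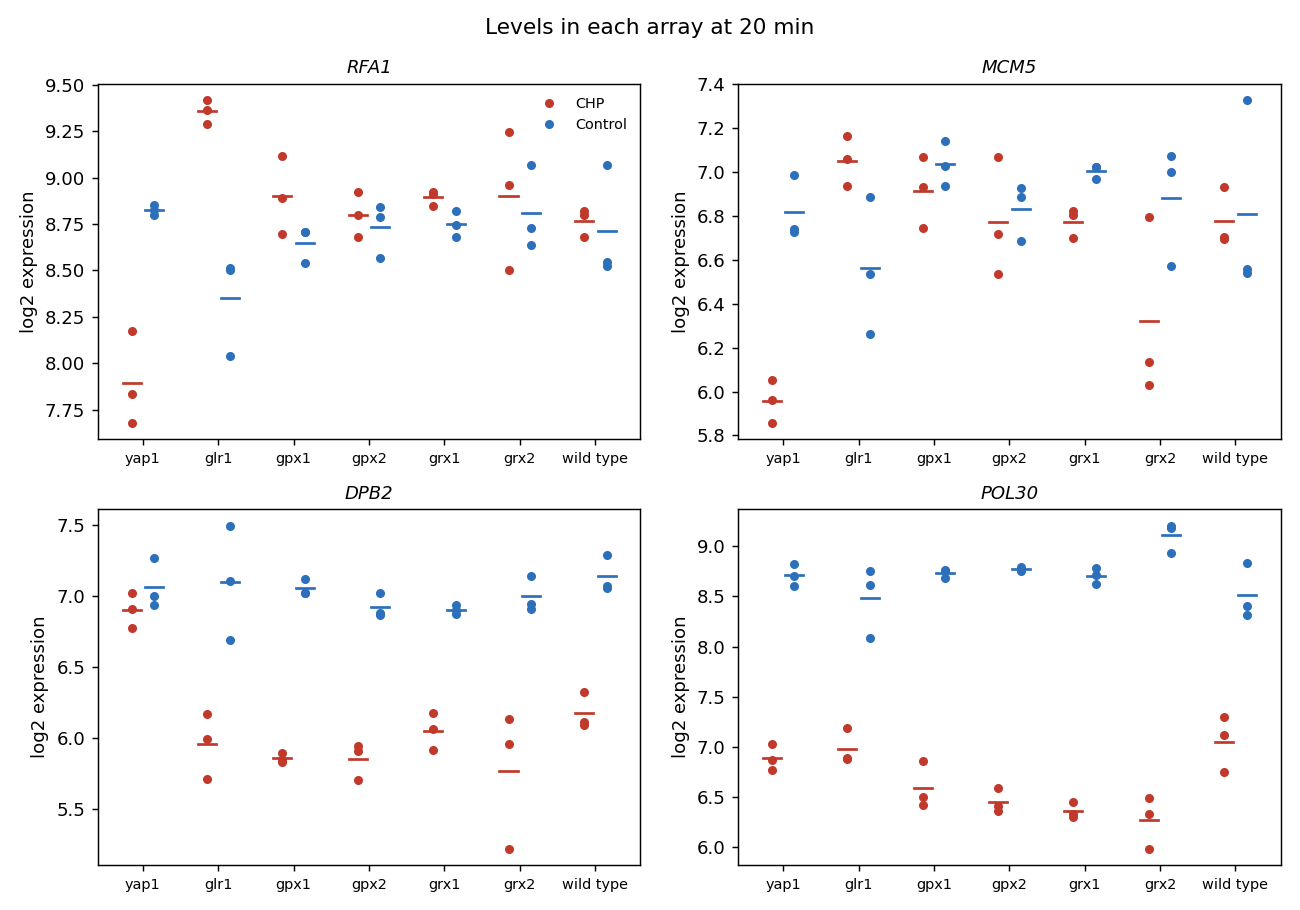
Log2 expression of RFA1, MCM5, DPB2 and POL30 in each array at 20 min, by genotype, with CHP left of Control and bars at the means of 3 cultures. RFA1 in CHP is below Control in yap1 and above it in glr1, DPB2 overlaps between the arms only in yap1, and POL30 in CHP is below Control in all 7 genotypes.

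POL30 was the member whose response differed from wild type in most mutants, 3 of 6. It was called in gpx2 (-0.86; 0.283% of all genes), in grx1 (-0.88; 0.76%) and in grx2 (-1.38), and in none of the others. In gpx1 its difference was -0.67, without a call but not far from those in gpx2 and grx1. Without the arrays labelled gpx2 it was called in 2, as many as RFA1 and CLB5. POL30 read 6.45, 6.33 and 6.29 in CHP cultures of grx1, against 8.63, 8.79 and 8.71 in Control cultures. It read 6.33, 5.98 and 6.49 in CHP cultures of grx2, against 9.21, 9.19 and 8.93 in Control cultures. In both mutants the arms were further apart than in wild type. Because the same wild-type cultures enter each, the calls are not independent. Those in gpx2 and grx1 ended without wild-type CHP replicate 2 (-0.74, limma adjusted p = 0.12, and -0.76, adjusted p = 0.0711). The gpx2 call also ended without wild-type Control replicate 2 (adjusted p = 0.0654). With the 0 min difference of the arms subtracted, POL30 was called in neither gpx2 nor grx1, and under quantile normalization it was not called in grx1. In gpx1 no member was called (0.177% of all genes), with 2 at an unadjusted p below 0.05.

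In grx2 13 members were called (28% of all genes), 12 lower and DPB11 higher at 1.27. Without the array that stood apart 4 were called (15.4%), and without grx2 CHP replicate 3, which keeps that array, 23. The 4 were POL30 (-1.23, limma adjusted p = 4.3e-07), the helicase subunit gene MCM6 (-0.62), ORC1 (-0.60) and POL12 (-0.56). DPB11 was then at -0.37 and not called (adjusted p = 0.215). Without all 5 arrays that stood apart, an alternative chosen after seeing the data, MCM6 was at -0.29 and not called (adjusted p = 0.308), while POL30, ORC1 and POL12 were called.

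Before the addition, at 0 min, the members differed little between mutants and wild type (6 cultures each). Called were 5 members in yap1 (12.2% of all genes), 0 in glr1 (0.0707%, with 1 at an unadjusted p below 0.05), 5 in gpx1 (29%), 4 in gpx2 (17.6%), 2 in the grx1 mutant (21.5%) and 6 in grx2 (29.1%). No called difference exceeded 0.5 on the log2 scale. CDC9 was lower in yap1 (-0.31), gpx1 (-0.31), gpx2 (-0.39) and grx1 (-0.33), and DPB2 was lower in the same 4. The same wild-type cultures enter all of them, and of these calls only RFC5 in gpx1 (0.43) and CLB6 in gpx2 (-0.36) held whichever culture was left out.

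Genes that act beside the 38 were lower in part in wild type at 20 min, when 21.9% of all genes were lower and 16.7% higher. Of 32 other replication genes 10 were lower and 0 higher, with a median of -0.23, among them the fork-protection gene TOF1 (-1.25), the ribonuclease H2 gene RNH201 (-1.12) and the alternative clamp-loader genes ELG1 (-1.03) and CTF18 (-0.97). Of 12 G1/S regulators 6 were lower and 0 higher (median -0.57), led by the repressor gene YOX1 (-2.49), the G1 cyclin genes CLN2 (-1.90) and CLN1 (-1.67) and the MBF co-repressor gene NRM1 (-1.26). All 6 S-phase cohesion genes were lower, among them the cohesin subunit genes MCD1 (-1.41), SMC3 (-1.22) and IRR1 (-0.80) and the regulator PDS5 (-1.30).

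G2/M genes were lower too, 9 of 10 with a median of -1.30. The largest were ALK1 (-1.96), the mitotic cyclin genes CLB1 (-1.68) and CLB2 (-1.60) and the polo kinase gene CDC5 (-1.67). Genes called lower were thus found among both the G1/S regulators (6 of 12) and the G2/M genes (9 of 10), and the part of cell-cycle stage in these responses was not tested. Of the checkpoint and DNA-damage genes 4 of 17 were lower and 3 higher (median 0.11), shares close to those of all genes. RNR1, the large subunit of ribonucleotide reductase, had the largest response of all listed genes at -2.90, and the nuclease gene DIN7 was at -0.64. The repair genes MAG1 (1.16), a DNA glycosylase, and PHR1 (1.05), a photolyase, were higher. Of the haploid and mating genes 2 of 12 were lower (AGA1 at -0.66 and RME1 at -0.38), and of the sporulation genes 2 of 10 were lower (SPS4 at -0.69 and SPO11 at -0.54) and 1 higher (NDT80 at 0.41).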

How the data were processed

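Each array is a sample of a yeast culture, hybridized as biotin-labelled cRNA from hot-phenol RNA, per the labels' protocols. The deposited log2 values were made by the authors with RMA, per the submitters' processing notes. Its version and settings are not stated by any source used here. Raw array files were not analysed here.

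Of 9335 probe sets, 60 are controls, 6504 name 1 gene, 328 several and 2443 none in the platform annotation used here, and 5656 genes were tested. Groups come from the sample titles. One linear model with a mean for each of 70 groups was fitted to all 210 arrays with limma 3.58.1 in R 4.3.3 (140 residual degrees of freedom), with Benjamini-Hochberg adjustment over all genes and a threshold of 0.05. Samples of the same culture entered as independent values (their correlation was 0.264). Contrasts were CHP minus Control by genotype and time, the difference of that response from wild type, the 20 min minus the 6 min response, mutant minus wild type at 0 min, and 20 min minus 0 min in Control cultures. The fit was also run on simulated data with independent noise in each array. Those data hold no correlation within cultures and no array that stands apart, so that run does not bear on either. The number of arrays limits the precision.

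The 38 members and the lists (other replication genes, G1/S regulators, checkpoint and DNA-damage response, S-phase cohesion, G2/M, haploid and mating, sporulation and meiosis) were chosen with earlier results of these data known. Values in every array are given for the member with the lowest and the highest wild-type response at 20 min in each role group and for the 3 members with the largest yap1 difference. Those of CDC6, DPB2, POL30 in the mutants, RFA2 and the glr1 and grx2 arrays were added after their values were seen. Up to 4 called genes with the largest response are named from each other list. Promoter sequences were not used here, so a planned search for the MCB motif was not run.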

Additional observations from a re-analysis of the deposited data

Results flagged for a closer look

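A culture far from the other 5 of its genotype at 0 min was looked for in the 12 members described array by array. Of 84 groups of 6 cultures 10 held such a value, and chance gives about 1 in 20. The array of yap1 Control replicate 1 held MCM7 at 6.64 (the others 7.46 to 7.73), DPB11 at 6.88 (6.10 to 6.19), PRI1 at 7.81 (7.16 to 7.39), CDC9 at 7.07 (7.71 to 8.02) and MCM5 at 7.41 (6.77 to 6.88). That array stood apart from its group over all genes too. In glr1 Control replicate 1, ORC4 read 7.22 (6.72 to 6.85) and RFA1 8.69 (8.33 to 8.44). In gpx2 Control replicate 3, MCM5 read 6.14 (6.76 to 6.99) and CLB6 4.51 (4.71 to 4.77), and in grx2 Control replicate 1, ORC4 read 6.94 (6.67 to 6.75).

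Responses at 20 min that differed from wild type by limma's test of the difference were marked for the members. In yap1 these were RFA1 (-0.99), CDC45 (-0.84), MCM5 (-0.83), MCM2 (-0.73), SLD2 (-0.73), CLB5 (-0.60), POL2 (0.54) and DPB2 (0.80). In glr1 they were RFA1 (0.95) and RFA2 (0.56), in gpx2 POL30 (-0.86) and in grx1 POL30 (-0.88). In grx2 they were POL30 (-1.38), ORC1 (-0.93), PSF1 (-0.83), MCM6 (-0.81), POL12 (-0.80), RFC4 (-0.74), MCM3 (-0.73), RFC5 (-0.73), CLB5 (-0.72), ORC5 (-0.64), ORC2 (-0.56), PRI1 (-0.42) and DPB11 (1.27), all from a fit that includes the array of CHP replicate 2.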

How the results depend on the processing

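Counts of members past the threshold that moved by over 1.5 times were as follows. With the 0 min difference of the arms subtracted, wild type had 0 lower at 3 min, 2 at 6 min and 10 at 12 min, and differences from wild type numbered 3 in yap1 and in grx2 and 0 in glr1, gpx2 and grx1. With arrays centred, wild type had 8 lower at 6 min and 15 at 12 min, glr1 1 difference and gpx1 8 members before CHP. Quantile normalization gave 1 difference in glr1 and 0 in grx1, and before CHP 9 members in gpx1 and 5 in grx1. Leaving out the dimmest 25% of genes gave 0 at 3 min. Fitting only the genotypes compared gave 1 difference in glr1, 1 in gpx1 and 8 in grx2, and before CHP 10 in gpx1, 9 in gpx2, 6 for grx1 and 1 in grx2. Without the grx2 array 4 differences were called in grx2. Without the 5 arrays standing apart, an alternative chosen after seeing the data, 1 difference was called in gpx1, and before CHP 10 in gpx1, 6 in grx1 and 10 in grx2. DPB11 in grx2 turned from 1.27 to -0.373 without the array and -0.491 without the 5. The cause of the other moves was not tested.

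Leaving out each culture in turn gave, in wild type, 0 to 1 members lower (3 min), 8 to 14 (6 min), 16 to 22 (12 min) and 18 to 23 (20 min). The ranges at 20 min were 25 to 27 in yap1, 18 to 23 in glr1, 19 to 22 in gpx1, 20 to 25 in gpx2, 25 to 28 in the grx1 mutant and 31 to 32 in grx2. Differences numbered 4 to 9 in yap1, 1 to 3 in glr1, 0 to 1 in gpx1, gpx2 and grx1, and 4 to 23 in grx2, with DPB11 from -0.373 to 2.14. Late falls in wild type numbered 8 to 10. Before CHP 1 to 9 were called in yap1, 0 in glr1, 1 to 7 in gpx1, 1 to 5 in gpx2, 0 to 5 for grx1 and 1 to 8 in grx2.

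The groups share replicate numbers, and 12 of 21 same-number pairs of CHP and Control cultures correlated above 0.1 (range -0.442 to 0.697). Pairs of different number ran from -0.782 to 0.708. The main fit did not use the numbers as pairs, and whether they pair cultures was not tested. With the numbers as a block, wild type had 16 members lower by 6 min, 28 by 12 min and 23 by 20 min. Then 11 differences were called in yap1, 17 in grx2 and 1 in gpx1. Probe sets near or below the level of deleted genes (ORC6, SLD2, CLB6 in CHP) may limit what could be seen.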
